A study of Homo sapiens with 3 samples.

Results

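The Eph receptors and ephrins described here are 10 genes chosen by symbol from the 58735 genes of the deposited tables: the A-type receptors EPHA2, EPHA3, EPHA4 and EPHA7, the B-type receptors EPHB2, EPHB3 and EPHB4, and the ephrins EFNA1, EFNB1 and EFNB2. They were read in RNA sequencing of 3 established lines of human prostate cancer, each represented by 1 library. PC3, from a bone metastasis, and DU145, from a brain metastasis, grow without androgen, and the series design places both in castration-resistant prostate cancer, the form that progresses under androgen deprivation. LNCAP, from a lymph node metastasis, responds to androgen and is placed in androgen-dependent cancer. All 3 lines were kept in medium with 10% serum, no treatment is named, and the medium given to each line cannot be told from the labels. Each line derives from 1 tumour, so a difference between lines also holds every genetic difference between these tumours. A bulk library also cannot tell fewer expressing cells from less RNA per cell.

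Eph receptors are the largest family of receptor tyrosine kinases, and their ligands, the ephrins, are themselves bound to the cell surface. A-type ephrins hold to the membrane by a lipid anchor, B-type ephrins span it, and A- and B-type receptors mostly bind ephrins of their own type. Contact between cells can therefore signal into both of them, through the kinase on one side and the ephrin on the other, and it commonly ends in repulsion or in sorting of cells through the cytoskeleton. In epithelia EPHA2, EPHB4 and their ligands are known from cell junctions and tumours, and EPHB4 with EFNB2 from the boundary between veins and arteries.

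The libraries held 15319045 counts in PC3, 15878546 in DU145 and 15393103 in LNCAP. KLK3, a marker of prostate luminal cells, had 0 counts in PC3, 0 in DU145 and 35507 in LNCAP. The epithelial keratin genes KRT8 and KRT18 were present in all 3 lines, at 189.5 to 1041 normalised CPM. The other 2 epithelial markers were low in PC3: CDH1 had 2.22 normalised CPM in PC3, 144.8 in DU145 and 785.8 in LNCAP, and EPCAM had 7.52 in PC3, 69.7 in DU145 and 61.7 in LNCAP. CTNNA1, known to be lost in PC3, had 33 counts in PC3, 7934 in DU145 and 5664 in LNCAP. The 3 endothelial markers, PECAM1, VWF and CDH5, summed to 20.2 normalised CPM in PC3, 0.957 in DU145 and 9.34 in LNCAP, with at most 3 counts of CDH5 in any library. The 3 leukocyte markers summed to at most 1.40 and the 3 fibroblast markers to at most 33.3, nearly all of it COL1A1. Levels are given as CPM, counts relative to library size, after TMM scaling (normalised CPM), and between genes as the authors' FPKM, which divides by gene length. Ratios between 2 libraries carry the exact 95% interval of their counts. Such an interval covers counting error only, compares these libraries and not the classes, and with 1 library per line no difference below has a replicate check. A gene was called if the libraries differed by 2 or more on the log2 scale (4-fold), after adding 0.5 counts to each, and if the interval left out a ratio of 1.

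The 250 bases before the transcription start annotated by RefSeq (GRCh38.p14) are printed for 4 members, because each led its type (A-type receptor, B-type receptor or B-type ephrin) by FPKM in at least 1 line. They lie at chr1:16156070-16156319 on the minus strand for EPHA2, at chr7:100827524-100827773 on the minus strand for EPHB4, at chrX:68828771-68829020 on the plus strand for EFNB1 and at chr13:106535663-106535912 on the minus strand for EFNB2. Each reads from 5′ to 3′ towards the gene. Another annotation, GENCODE 29, starts some members earlier than RefSeq. Within its exons of the same gene lie 18 bases of the EPHA2 window, 24 of the EFNB1 window and 0 of the EPHB4 and EFNB2 windows. Among windows not printed, that of EFNA1 lies in such exons with all 250 bases. Capitals mark matches, on either strand, to the GC box GGGCGG, the E-box CAGGTG and the ETS core GGAAG.
EPHA2: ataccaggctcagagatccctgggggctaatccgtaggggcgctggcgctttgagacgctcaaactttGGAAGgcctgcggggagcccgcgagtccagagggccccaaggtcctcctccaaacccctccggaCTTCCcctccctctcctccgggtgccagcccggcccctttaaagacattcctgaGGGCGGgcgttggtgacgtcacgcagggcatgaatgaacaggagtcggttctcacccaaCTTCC
EPHB4: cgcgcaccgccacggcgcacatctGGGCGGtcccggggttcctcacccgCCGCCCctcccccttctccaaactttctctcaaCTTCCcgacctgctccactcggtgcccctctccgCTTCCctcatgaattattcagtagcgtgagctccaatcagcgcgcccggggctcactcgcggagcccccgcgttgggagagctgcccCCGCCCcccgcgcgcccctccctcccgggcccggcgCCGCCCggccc
EFNB1: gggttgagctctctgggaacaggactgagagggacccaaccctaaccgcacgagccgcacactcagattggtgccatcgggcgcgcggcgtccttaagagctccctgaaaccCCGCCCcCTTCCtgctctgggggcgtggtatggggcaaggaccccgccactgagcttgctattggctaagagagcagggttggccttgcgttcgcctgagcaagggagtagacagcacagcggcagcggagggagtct
EFNB2: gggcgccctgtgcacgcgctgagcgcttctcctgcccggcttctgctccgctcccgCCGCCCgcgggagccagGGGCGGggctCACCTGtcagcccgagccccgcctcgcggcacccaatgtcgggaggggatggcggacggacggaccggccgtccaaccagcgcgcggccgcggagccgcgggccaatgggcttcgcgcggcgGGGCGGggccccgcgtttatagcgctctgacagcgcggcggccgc
The fourth motif searched was the AP-1 site TGANTCA. All 10 members matched the RefSeq table, through 14 start sites. The AP-1 letters were in 0 of these 14 windows, where 6.57% of all 35116 RefSeq windows of this length held them. The GC box was in 13 of the 14, all but the window of EPHA3, against 42.6% of all windows. These 13 are not separate: the 2 EPHB2 windows hold the same match, as do 2 overlapping EPHA7 windows, and by gene 9 of the 10 members had one. The E-box was in 4 windows, from EPHA7, EPHB2 and EFNB2, against 17.5% of all windows, and the 2 EPHB2 windows are shifted by a single base and so count the same match again. The ETS core was in 5 windows, those of EPHA2, EPHB4 and EFNB1 among them, against 65.1% of all windows. The 4 printed windows were 63.2% G and C in EPHA2, 72.8% in EPHB4, 63.6% in EFNB1 and 78.4% in EFNB2, where the median window had 58%. No match or its absence speaks of a factor's binding, which was not measured.

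By FPKM, EPHA2 stood above every other member in PC3 and in DU145. Its gene (chr1:16124337-16156087, minus strand, GRCh38) encodes a receptor for EFNA1 that epithelial cells carry and that many carcinomas hold at high levels. It had 15083 counts in PC3 and 4969 in DU145, against 294 in LNCAP. These counts gave 987 normalised CPM in PC3, 317 in DU145 and 18.8 in LNCAP, so both castration-resistant lines were far above LNCAP. The PC3 level was 52.5-fold higher than in LNCAP (46.7 to 59.1), and the DU145 level was 16.9-fold higher (15.0 to 19.0). PC3 exceeded DU145 by 3.11-fold (3.01 to 3.21). In FPKM the gene stood at 236 in PC3, 76.2 in DU145 and 4.44 in LNCAP. By that measure it ranked 64 among the 19951 protein-coding genes in PC3, 408 in DU145 and 7367 in LNCAP.

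The other 3 A-type receptors were low in every line, at no more than 2.20 FPKM. EPHA4 (chr2:221418027-221574202, minus strand), a receptor of axon guidance that binds ephrins of both types, had 22 counts in PC3, 120 in DU145 and 1 in LNCAP. The order of the lines thus differed from that of EPHA2, with DU145 highest. The ratios to LNCAP rest on its single count: 22.5 in PC3 (3.64 to 929) and 120 in DU145 (21.1 to 4768). PC3 was 5.32-fold lower than DU145 (3.36 to 8.81).

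EPHA7 and EPHA3 had counts in PC3 and LNCAP and none in DU145. EPHA7 (chr6:93240020-93419547, minus strand), a receptor of cortical development, had 169 counts in PC3, 0 in DU145 and 261 in LNCAP. DU145 was at least 87.2-fold lower than LNCAP, computed with 3 counts in place of 0, and PC3 was at least 57.7-fold higher than DU145. Between PC3 and LNCAP the difference was small, with PC3 1.51-fold lower (1.24 to 1.84). EPHA3 (chr3:89107524-89482134, plus strand), known from axon guidance and from heart development, had 25 counts in PC3, 0 in DU145 and 59 in LNCAP. DU145 was at least 19.7-fold lower than LNCAP for EPHA3, PC3 was 2.31-fold lower than LNCAP (1.42 to 3.85), and PC3 was at least 8.54-fold higher than DU145. A count of 0 in DU145 allows up to 0.191 normalised CPM, so these transcripts were below detection at this depth and are not shown to be absent.

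**Figure D1:**
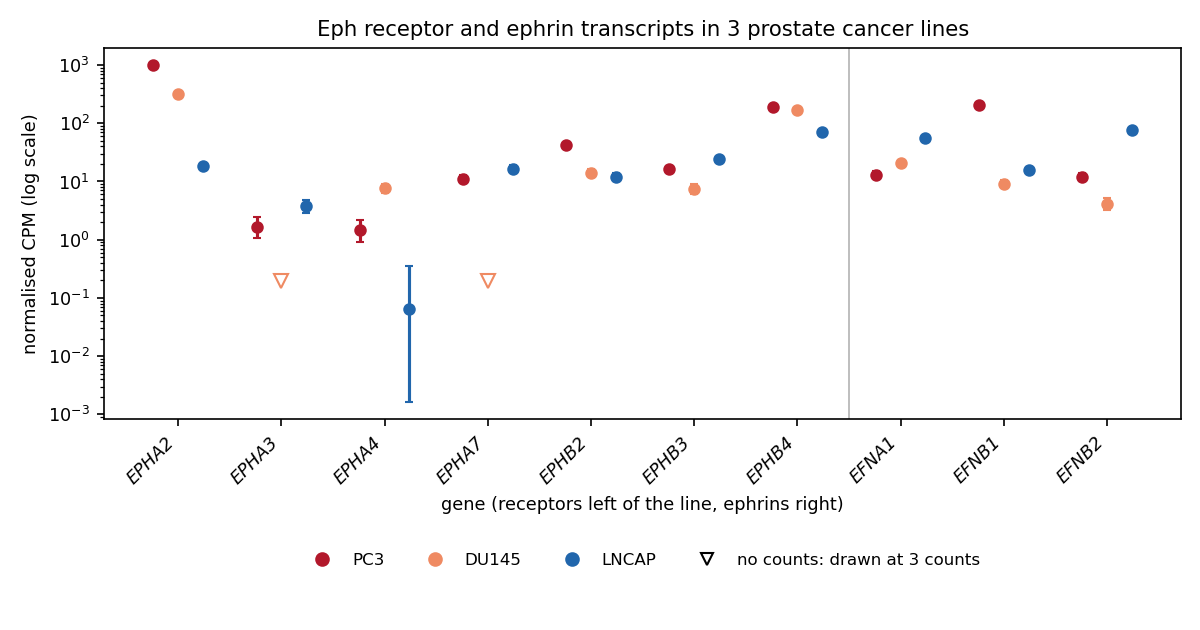
Normalised CPM of the 10 members (log scale) in the PC3, DU145 and LNCAP libraries, left to right within each gene; bars are exact 95% counting intervals of 1 library, and open triangles mark 0 counts, drawn at the limit of 3 counts. EPHA2 falls between 317 and 987 in the castration-resistant lines against 18.8 in LNCAP, and EFNB2 is highest in LNCAP at 77.5.

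The B-type receptors ranged over 1.47 to 1.80 in log2 CPM across the lines, where each other member ranged over at least 2.09, and none of the 3 was called in any comparison. EPHB4 (chr7:100802565-100827521, minus strand), the receptor that prefers EFNB2, had 2943 counts in PC3, 2632 in DU145 and 1088 in LNCAP. Its levels were 193, 168 and 69.6 normalised CPM in PC3, DU145 and LNCAP. PC3 and DU145 were close to each other and both above LNCAP, by 2.77-fold in PC3 (2.58 to 2.97) and by 2.41-fold in DU145 (2.25 to 2.59). PC3 exceeded DU145 by 1.15-fold (1.09 to 1.21).

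EPHB2 and EPHB3 are the receptors known for placing cells along the intestinal crypt, and EPHB2 has been described as mutated in prostate cancer. EPHB2 (chr1:22710839-22921500, plus strand) had 636 counts in PC3, 223 in DU145 and 186 in LNCAP. PC3 was high by itself, 3.50-fold above LNCAP (2.97 to 4.14) and 2.92-fold above DU145 (2.51 to 3.42). DU145 was not resolved from LNCAP, at a ratio of 1.20 (0.980 to 1.46). EPHB3 (chr3:184561784-184582409, plus strand) had 253 counts in PC3, 116 in DU145 and 379 in LNCAP. LNCAP was highest for EPHB3, with PC3 1.46-fold lower (1.25 to 1.72) and DU145 3.27-fold lower (2.65 to 4.07), and PC3 was 2.24-fold higher than DU145 (1.79 to 2.81).

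Each of the 3 ephrins had its own order of lines. EFNA1 (chr1:155127460-155134857, plus strand), the lipid-anchored ligand of EPHA2, had 199 counts in PC3, 325 in DU145 and 870 in LNCAP. Its levels of 13.0 normalised CPM in PC3 and 20.7 in DU145 lay below the 55.7 of LNCAP. PC3 was 4.27-fold lower than LNCAP (3.66 to 5.01), just past the 4-fold threshold, and DU145 was 2.68-fold lower (2.36 to 3.06). PC3 was also 1.59-fold lower than DU145 (1.33 to 1.91).

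EFNB1 (chrX:68828997-68842147, plus strand), the X-linked ligand whose loss causes craniofrontonasal syndrome, had 3131 counts in PC3, 141 in DU145 and 247 in LNCAP. PC3 alone was high, at 205 normalised CPM against 9.0 in DU145 and 15.8 in LNCAP. PC3 was 13.0-fold higher than LNCAP (11.4 to 14.8), while DU145 was 1.76-fold lower than LNCAP (1.42 to 2.18). Between the castration-resistant lines PC3 was 22.8-fold higher than DU145 (19.2 to 27.1).

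EFNB2 (chr13:106489731-106535662, minus strand), the ligand of EPHB4, had 184 counts in PC3, 65 in DU145 and 1211 in LNCAP. It was highest in LNCAP, at 77.5 normalised CPM, with 12 in PC3 and 4.15 in DU145. PC3 was 6.44-fold lower than LNCAP (5.51 to 7.56) and DU145 was 18.7-fold lower (14.5 to 24.4), and PC3 was 2.90-fold higher than DU145 (2.18 to 3.91). An antisense gene model, AL138689.2, shares 26.2% of the EFNB2 exon bases and had 1 count in PC3, 0 in DU145 and 48 in LNCAP. The strand setting of the counting is not given in the sources used here, so reads of this antisense RNA could not be told from those of EFNB2, and its part in the difference was not tested. The other members shared at most 4.67% of their exon bases with another gene model, and that largest share belonged to EPHA4.

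Against LNCAP, PC3 had 3 members called higher, EPHA2, EPHA4 and EFNB1, where 13% of the 18025 genes compared were called higher. The genes compared are those that reached 1 CPM in any of the libraries. Against LNCAP it also had 2 called lower, EFNA1 and EFNB2, where 13.3% of genes were called lower. DU145 against LNCAP had 2 members called higher, EPHA2 and EPHA4, with 13.7% of all genes, and 3 called lower, EPHA3, EPHA7 and EFNB2, with 12.1% of all genes. PC3 against DU145 had 3 called higher, EPHA3, EPHA7 and EFNB1, with 8.54% of all genes, and 1 called lower, EPHA4, with 10.6% of all genes. All 10 members passed the 1 CPM filter, EPHA3 and EPHA7 only through PC3 and LNCAP, and EPHA4 only through PC3 and DU145. With 10 members these counts are small, and the members went both ways in each comparison. The median log2 ratio of the members was 0.46 in PC3 against LNCAP, -1.12 in DU145 against LNCAP and 1.54 in PC3 against DU145, where the median of all genes tested was -0.006, -0.003 and 0.019. The comparisons of PC3 and of DU145 with LNCAP share the LNCAP library, so a deviation of that library enters both.

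**Figure D2:**
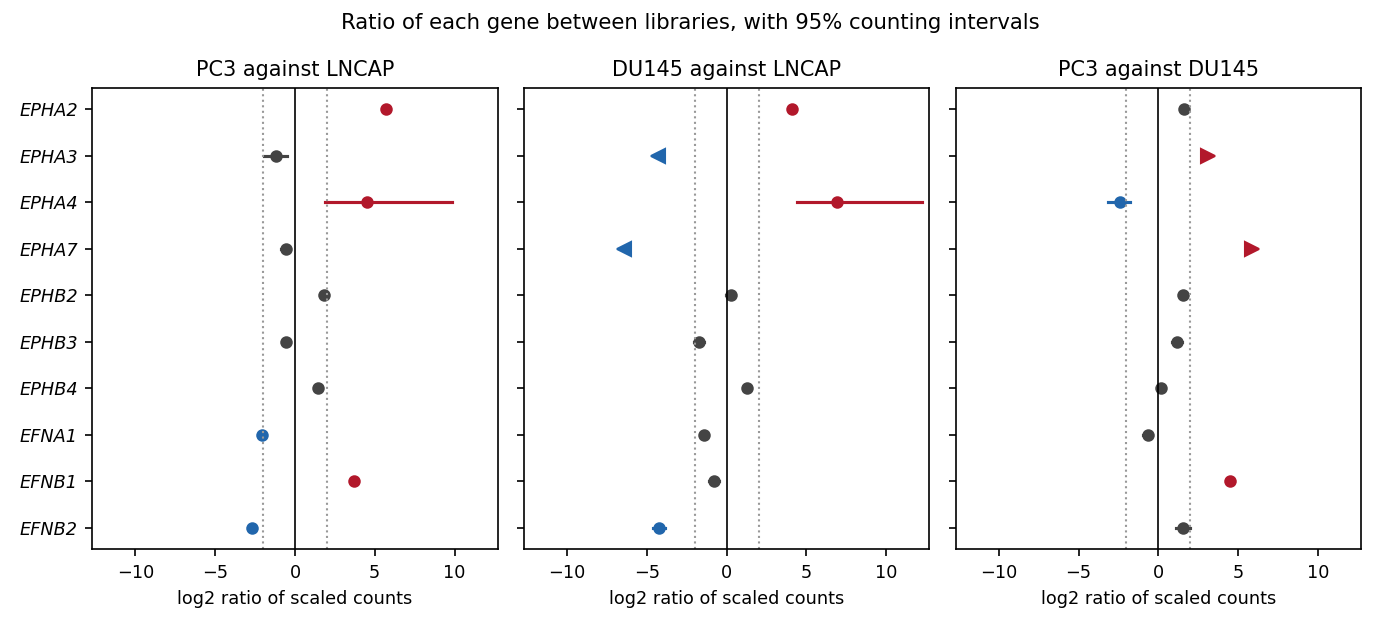
Log2 ratio of scaled counts for each member in PC3 against LNCAP, DU145 against LNCAP and PC3 against DU145, with exact 95% counting intervals; triangles are bounds against 0 counts, dotted lines mark 4-fold, and red and blue mark members called higher and lower. EFNB1 lies at 3.69 in PC3 and at -0.81 in DU145, each against LNCAP.

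**Figure D3:**
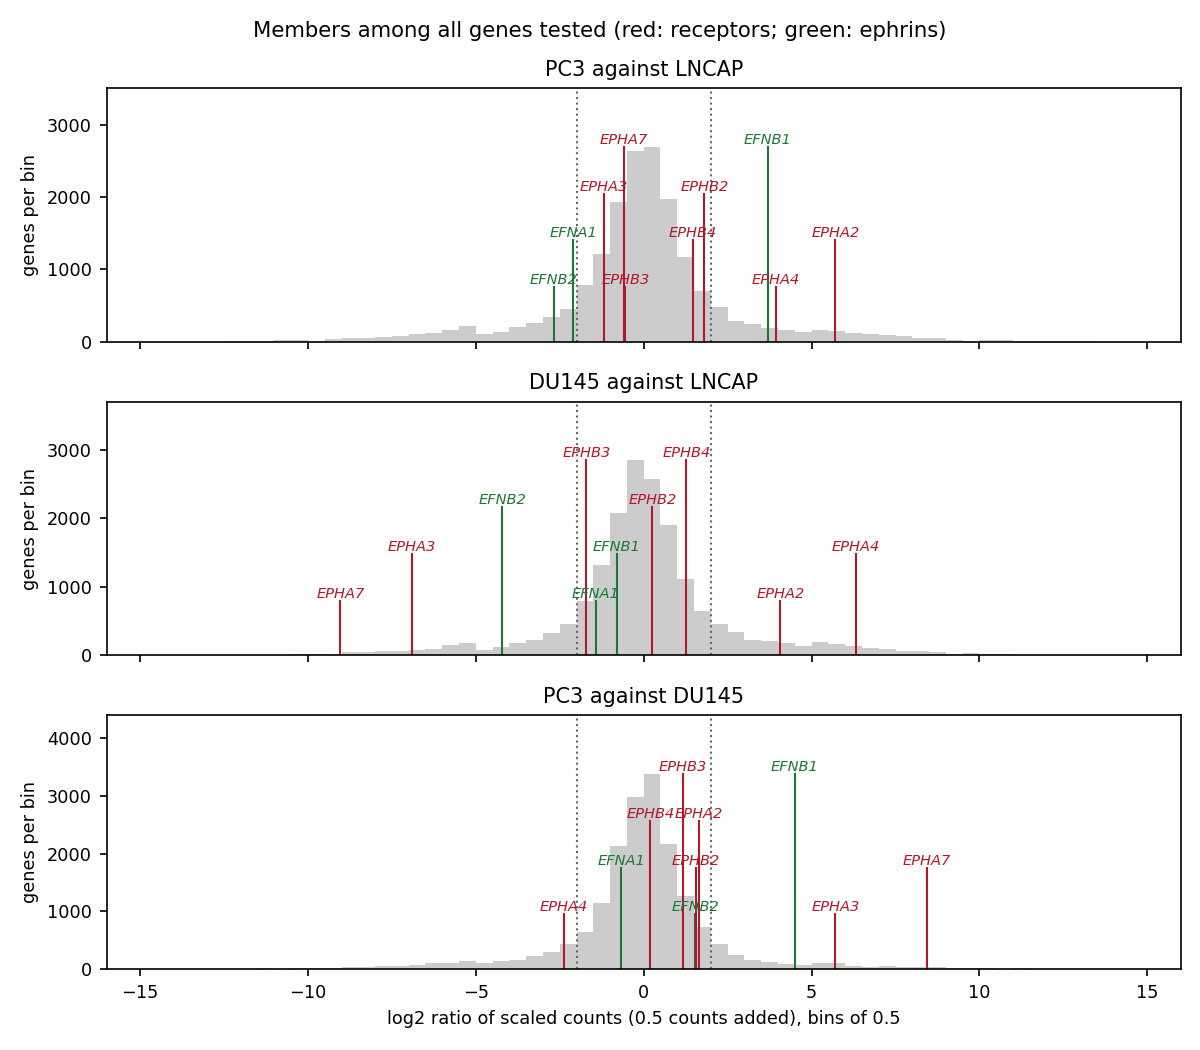
Log2 ratios, with 0.5 counts added, of the 10 members (vertical lines, with heights set only to separate the names) over the histogram of all 18025 genes tested, in bins of 0.5; dotted lines mark 4-fold. The B-type receptors lie inside the 4-fold lines in all 3 panels, and EPHA7 lies at -9.03 in DU145 against LNCAP.

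Treating PC3 and DU145 as 2 libraries of one class against LNCAP, edgeR's quasi-likelihood test called 0 of the 18025 genes at an adjusted p of 0.05 (0% of genes), with 1746 genes at an unadjusted p under 0.05. This fit has 1 residual degree of freedom and takes the distance between PC3 and DU145 as the spread. EPHA2 had a log2 fold change of 5.11 with an edgeR adjusted p of 0.376, and both lines were above LNCAP. EFNB2 had a log2 fold change of -3.26 with an edgeR adjusted p of 0.419, and both lines were below LNCAP. These class values average unlike lines: against LNCAP alone, the log2 ratio of EPHA2 was 5.71 in PC3 and 4.07 in DU145, and that of EFNB2 was -2.68 in PC3 and -4.21 in DU145. The other 8 members had edgeR adjusted p-values between 0.536 and 0.882. DESeq2 gave an adjusted p for 15229 genes and called 914 higher (6%) and 388 lower (2.55%). Among the members it called EPHA2 higher (adjusted p 2.54e-06) and EFNB2 lower (adjusted p 0.0281). Limma-voom called 0 genes, with 1334 at an unadjusted p under 0.05.

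Within a line, levels of different members can be set side by side per length. In PC3 the order by FPKM began with EPHA2 at 236, EFNB1 at 61.4 and EPHB4 at 29.7, with each of the other 7 at or below 5.09. In DU145 it began with EPHA2 at 76.2, EPHB4 at 26.1 and EFNA1 at 8.16. In LNCAP the 2 ephrins EFNA1, at 21.5, and EFNB2, at 15.2, came before EPHB4 at 10.6. Neighbours in these orders were apart beyond counting error, except EPHB3 and EPHB2, and EPHA3 and EPHA4, in PC3, EPHB2, EPHA4 and EFNB2 in DU145, and EPHB3, EFNB1 and EPHA2 in LNCAP. EPHA3 and EPHA7 were both listed at 0 in DU145.

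The balance of receptor to ligand differed between the lines. The FPKM of EPHA2 over that of EFNA1 was 46.3 in PC3 (40.2 to 53.5) and 9.33 in DU145 (8.34 to 10.5), against 0.206 in LNCAP (0.180 to 0.236). In LNCAP this ligand therefore exceeded the receptor, by 4.85-fold. EFNA1 was not the highest A-type ephrin in any line. EFNA4 was higher in PC3, at 5.76 FPKM, and in DU145, at 10.9, and EFNA5 was higher in LNCAP, at 31.7. The FPKM of EPHB4 over that of EFNB2 was 12.5 in PC3 (10.7 to 14.6) and 31.6 in DU145 (24.7 to 41.0), against 0.701 in LNCAP (0.645 to 0.761). The pair of EPHB4 and EFNB1 went otherwise: the ligand exceeded the receptor in PC3, with a ratio of receptor to ligand of 0.484 (0.460 to 0.509), and not in DU145, with 9.61 (8.11 to 11.5), or in LNCAP, with 2.27 (1.97 to 2.62). For EPHB2 and EFNB1 the ligand was the higher of the pair in all 3 lines, by 18.6-fold in PC3, 2.39-fold in DU145 and 5.02-fold in LNCAP. These ratios compare transcripts, and protein was not measured.

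The 22 genes of the whole family are 14 receptors and 8 ephrins, and the 12 that are not members were read in the same way. Summed FPKM of the 9 A-type receptors was 243 in PC3 and 79.9 in DU145, against 18.0 in LNCAP, and EPHA2 alone made up 97.1% of it in PC3, 95.4% in DU145 and 24.6% in LNCAP. The 5 B-type receptors summed to 48.4 FPKM in PC3, 29.4 in DU145 and 16.9 in LNCAP, led by EPHB4 in each line. The 5 A-type ephrins ran the other way, at 14.1 FPKM in PC3, 29.3 in DU145 and 75.6 in LNCAP. They were led by EFNA4 in PC3 and DU145 and by EFNA5 in LNCAP. The 3 B-type ephrins summed to 68.2 FPKM in PC3, 4.90 in DU145 and 20.3 in LNCAP, led by EFNB1 in PC3 and DU145 and by EFNB2 in LNCAP.

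**Figure D4:**
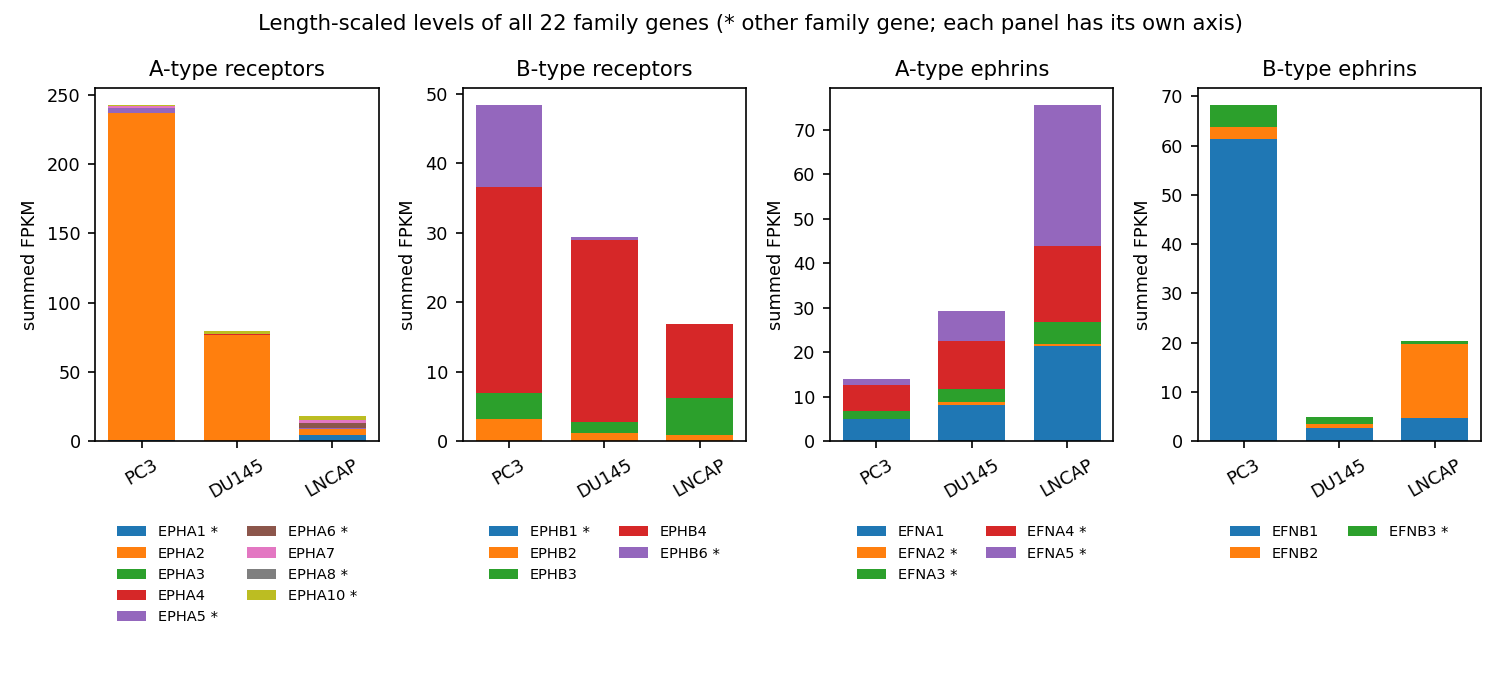
Summed FPKM of the 22 family genes in PC3, DU145 and LNCAP, stacked by gene, for A-type receptors, B-type receptors, A-type ephrins and B-type ephrins; asterisks mark the 12 genes that are not members, and each panel has its own axis. EPHA2 fills nearly the whole receptor bar of PC3 and DU145 among the A-type receptors, and the A-type ephrins are tallest in LNCAP, at 75.6.

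Among these 12 genes, 9 passed the filter. PC3 against LNCAP had 3 called higher (EPHA5, EPHB6 and EFNB3) and 3 called lower (EPHA6, EPHA10 and EFNA5), where 13% and 13.3% of all genes were called. DU145 against LNCAP had 1 called higher, EPHB6, and 4 called lower, EPHA1, EPHA5, EPHA6 and EFNA5, where 13.7% and 12.1% of all genes were called. PC3 against DU145 had 3 called higher (EPHA5, EPHA6 and EPHB6) and 2 called lower (EPHA10 and EFNA5), where 8.54% and 10.6% of all genes were called. EPHA8, EPHB1 and EFNA2 did not pass, with at most 12 counts in any library.

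The kinase-dead receptor EPHB6 had 964 counts in PC3, 40 in DU145 and 6 in LNCAP, which placed PC3 164-fold above LNCAP (75.2 to 449) and DU145 6.65-fold above it (2.80 to 19.2). EPHA5, a receptor of the nervous system, had 477 counts in PC3, 0 in DU145 and 23 in LNCAP. It was 21.2-fold higher in PC3 than in LNCAP (14.0 to 33.8) and at least 7.68-fold lower in DU145 than in LNCAP. EPHA6, also known from the nervous system, had 48 counts in PC3, 1 in DU145 and 372 in LNCAP, so that EPHA3, EPHA5, EPHA6 and EPHA7 each had at most 1 count in DU145. EPHA1 had 5.30 normalised CPM in PC3 and 2.94 in DU145, against 21.0 in LNCAP. The kinase-dead EPHA10 had 3.21 in PC3 and 16.7 in DU145, against 21.0 in LNCAP. EFNB3, which spans the membrane like EFNB1, had 14.5 normalised CPM in PC3, 4.40 in DU145 and 1.66 in LNCAP.

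The lipid-anchored ephrins EFNA3, EFNA4 and EFNA5 shared with EFNA1 the order PC3 below DU145 below LNCAP. EFNA5, known from the mapping of retinal axons, had 8.57 normalised CPM in PC3 and 38.2 in DU145, against 184 in LNCAP. It was 21.5-fold lower in PC3 than in LNCAP (18.0 to 25.8) and 4.83-fold lower in DU145 (4.42 to 5.28). EFNA4 had 7.33 normalised CPM in PC3 and 13.8 in DU145, against 21.8 in LNCAP. EFNA3 had 3.47 in PC3 and 5.30 in DU145, against 9.79 in LNCAP. EFNA4, EFNA3 and EFNA1 lie in this order on the plus strand of chromosome 1, between 155063731 and 155134857. A model on the same strand that joins EFNA4 and EFNA3 shares 44.7% of the EFNA3 and 15.0% of the EFNA4 exon bases. It had 0 counts in each library. How reads in shared bases were counted is not given, and the effect on EFNA3 and EFNA4 levels was not tested.

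Of 71 genes that act with these receptors or on them, 65 passed the filter. PC3 against LNCAP had 12 called higher (18.5%, against 13% of all genes) and 5 called lower (7.69%, against 13.3%). DU145 against LNCAP had 12 called higher (18.5%, against 13.7%) and 2 called lower (3.08%, against 12.1%). PC3 against DU145 had 7 called higher (10.8%, against 8.54%) and 4 called lower (6.15%, against 10.6%). With 65 genes these shares rest on few calls, and nothing is read from their distance to those of all genes. Their median log2 ratio was 0.67 in PC3 against LNCAP, 0.54 in DU145 against LNCAP and -0.12 in PC3 against DU145, where that of all genes was -0.006, -0.003 and 0.019. TIAM1, an exchange factor that activates Rac, had 689 counts in PC3 and 826 in DU145, against 0 in LNCAP, and was higher by at least 235-fold in PC3 and by at least 275-fold in DU145. MMP14, a membrane protease that cleaves EPHA2, had 925 counts in PC3 and 2495 in DU145, against 1 in LNCAP. Both genes were named because their ratios to LNCAP had the largest near ends among the partners, so their distance from LNCAP follows from that choice.

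On the lower side, PIK3R1, the regulatory subunit of PI3-kinase, had 9.16 normalised CPM in PC3 and 23.0 in DU145, against 94.4 in LNCAP. It was 10.3-fold lower in PC3 (8.66 to 12.3) and 4.10-fold lower in DU145 (3.65 to 4.61). ARHGEF16, an exchange factor that binds EPHA2, had 27 counts in PC3 and 793 in LNCAP and was 28.7-fold lower (19.6 to 43.9). VAV3, an exchange factor known downstream of EPHA2, had 31 counts in PC3, 0 in DU145 and 13 in LNCAP, at least 4.34-fold lower in DU145 than in LNCAP and at least 10.6-fold higher in PC3 than in DU145. NGEF, an exchange factor bound to EPHA4, was 18.4-fold higher in PC3 than in DU145 (14.8 to 23.1). PTPRO, a phosphatase of Eph receptors, was at least 40.0-fold lower in PC3 than in DU145, with 0 counts in PC3 and 123 in DU145. The Src-family kinase gene LYN was 23.0-fold lower in PC3 than in DU145 (17.8 to 30.2), at 3.99 and 91.8 normalised CPM in PC3 and DU145.

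The 3 members with the widest spread over the lines were EPHA7, EPHA3 and EPHA4, with a range of 9.03, 6.90 and 6.33 in log2 CPM. All 3 had at most 1 count in 1 line, so these ranges, and the distances and nearest genes below, depend on the 0.5 counts added. Profiles were compared by the distance of log2 CPM, centred over the 3 lines, among 10932 protein-coding genes. Nearest to EPHA7 were CCDC141 at a distance of 0.28, SPTLC3 at 0.79 and PRAC1 at 0.81, each with 0 CPM in DU145. Nearest to EPHA3 were ANK3 at 0.09, ST3GAL1 at 0.38 and AMH at 0.54, and nearest to EPHA4 were BMP4 at 0.15, SFN at 0.25 and HECW1 at 0.31. With 3 points in a profile and 1 library behind each, these distances are a description.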

How the data were processed

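The authors deposited, per library, raw read counts per gene as whole numbers with no normalization, and FPKM values, which in these files equal the count divided by gene length and by 1 constant per library. Of tools, Cuffdiff 2.1.1, Cufflinks 2.1.1, TopHat2 2.0.9 and Bowtie2 2.0.6 are listed in the submitters' processing notes, with no role stated. Which program counted the reads, whether it used strand and on which build is not given in the sources read. All 22 family genes matched GENCODE 29 on GRCh38. Counts were scaled by TMM factors of 0.998 in PC3, 0.987 in DU145 and 1.016 in LNCAP (edgeR 4.0.16, R 4.3.3). Intervals are conditional binomial (Clopper-Pearson, scipy 1.17.1) or exact Poisson. Without molecular identifiers, reads are no independent molecules. The class test was edgeR's quasi-likelihood test with Benjamini-Hochberg adjustment over 18025 genes, with DESeq2 1.42.0 and limma 3.58.1 (voom) as alternatives. All were run on simulated counts in which PC3 and DU145 shared every change. The real lines do not, so that run cannot judge the class test here. Named were all members, the other family genes, the 2 partners each way with the largest near bound per comparison, and the 3 nearest profiles of the 3 widest members. Members and lists were chosen with earlier results of these data known, and the genes neighbouring members on the chromosome after their values were seen. One marker gene is not reported here.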

Additional observations from a re-analysis of the deposited data

Results flagged for a closer look

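EFNB1 was the member that lay on opposite sides of LNCAP in the castration-resistant lines, above it in PC3 and below it in DU145. PC3 stood 4.50 above DU145 on the log2 scale, from 3131 counts in PC3 and 141 in DU145. With 1 library per line and LNCAP shared by both comparisons, the difference between the lines' effects was not tested across samples.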

How the results depend on the processing

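Scaling by DESeq2 size factors or by library totals alone moved no log2 ratio of a member by more than 0.042. Adding 5 counts, or dropping the CPM filter, kept every count of calls within 1.5 times the reported one. Log2 ratios of members moved more, by up to 3.30 with 5 counts added. That was EPHA7 in DU145 against LNCAP, from -9.03 to -5.74. The same ratio moved most with deposited FPKM plus 0.1, by 4.51, and with FPKM plus 1, by 7.36. With deposited FPKM plus 0.1, which shrinks ratios of low genes, 0 members were lower in PC3 against DU145. Members higher then went from 3 to 2 in PC3 against LNCAP, and from 3 to 2 in PC3 against DU145. With FPKM plus 1, genes past 4-fold were 908 higher and 746 lower in PC3 against LNCAP, 887 and 665 in DU145 against LNCAP, and 474 and 523 in PC3 against DU145. Members past 4-fold were then 2 higher and 1 lower in PC3 against LNCAP. They were 1 higher and 1 lower in DU145 against LNCAP, and 1 higher and 0 lower in PC3 against DU145. A 5 CPM filter, which tests fewer genes, left 1327 lower in PC3 against LNCAP, 1624 higher and 1198 lower in DU145 against LNCAP, and 943 higher and 1104 lower in PC3 against DU145. Under this filter members went from 3 to 2 lower in DU145 against LNCAP, and from 3 to 2 higher in PC3 against DU145. In the class comparison DESeq2 called 1302 genes where edgeR and limma-voom called 0, and the cause was not tested. Without PC3 the class log2 fold change of EFNB1 turned to -0.81, and without DU145 it was 3.69, against 2.76 with both lines. The class values of the other 9 members kept their sign and also moved, most for EPHA7, which was -9.03 without PC3 and -0.59 without DU145, against -1.59 with both lines. Leaving out a library leaves no residual degrees of freedom, so these are values with no test. No paired analysis was possible because each line has 1 library. Depth limits EPHA3, EPHA4 and EPHA7, whose ratios rest on 0 or 1 count in a line.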

Other observations

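The genes next to the members on the chromosome gave values that belong to no comparison above. FAM131C, the nearest protein-coding gene below EPHA2, 50.7 kb away, had 117 counts in PC3 and 127 in DU145, against 2 in LNCAP, while ARHGEF19, 41.8 kb above it, had 304, 661 and 365 counts in PC3, DU145 and LNCAP. ARGLU1, 6.0 kb from EFNB2, had 1655 counts in PC3, 1920 in DU145 and 1968 in LNCAP, so its levels lay close together where those of EFNB2 did not. FAM155A, the gene beyond it, 627.8 kb from EFNB2, had 178 counts in PC3, 0 in DU145 and 1 in LNCAP. SLC50A1, 0.5 kb from EFNA1, had 850 counts in PC3, 1368 in DU145 and 1499 in LNCAP. STARD8, 103.2 kb from EFNB1, had 35 counts in PC3 and 37 in DU145, against 0 in LNCAP, and PJA1, on the other side, had 786, 319 and 430 in PC3, DU145 and LNCAP. MAP3K7 and MANEA, the nearest protein-coding genes either side of EPHA7, lie far from it, at 2653 kb and 2158 kb. Both had counts in DU145, 877 and 367, where EPHA7 had 0. SLC12A9, which overlaps EPHB4, had 551 counts in PC3, 483 in DU145 and 761 in LNCAP. TRIP6, the gene beyond it, 39.6 kb from EPHB4, had 127 counts in PC3, 1336 in DU145 and 35 in LNCAP.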
